A study of Homo sapiens with 6 samples.

Results

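The genes described here are 10 acetylcholine receptor and cholinesterase genes of the 61731 genes and loci measured in U87-MG, an established human glioblastoma cell line. They were taken by name, through their Ensembl identifiers: the muscarinic receptors CHRM2, CHRM3, CHRM4 and CHRM5, the nicotinic receptor subunits CHRNA1, CHRNA5, CHRNA7 and CHRNB1, and the cholinesterases ACHE and BCHE. The samples were 3 libraries of negative control cells (NC, genotype given as Normal control) and 3 of cells with the genotype CHRM Knockdown (KD), which the study made with lentivirus against CHRM3. Which of the study's CHRM3 sequences the KD cells carried is not stated in the labels. Neither do they tell if replicates were grown apart, so p-values measure only the spread between these libraries. Levels are TPM, which scale each transcript's share of its library by length, so they can be compared between genes. TPM keeps no read depth, and the depth and the detection limit are therefore unknown.

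Acetylcholine acts on receptors of 2 families. Muscarinic receptors are G protein-coupled receptors, of which M1, M3 and M5 couple to Gq and phospholipase C, and M2 and M4 to Gi and the inhibition of adenylyl cyclase. Nicotinic receptors are ion channels built from 5 subunits around a pore, and the subunits present set where and how the channel works. Acetylcholinesterase (ACHE) and butyrylcholinesterase (BCHE) break acetylcholine down.

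In these cells most of the 10 genes were near 0. Only CHRNA5, BCHE and CHRNB1 reached 1 TPM in all 3 libraries of each group. At a threshold of 0.1 TPM in all 3 libraries of a group, CHRNA7 was detected as well in both groups and CHRM4 in the negative control alone, which makes 5 genes in the negative control and 4 in the KD libraries. At the same threshold 65.2% and 65.0% of the 19878 protein-coding genes were detected. By the mean over the 6 libraries the order was CHRNA5 (12.1 TPM), BCHE (3.93), CHRNB1 (3.81), CHRNA7 (0.215), CHRM4 (0.135), CHRM3 (0.0667), ACHE (0.030), CHRM5 (0.015), CHRNA1 (0.0083) and CHRM2 (0.0033). The ranges over libraries separated CHRNA5 from BCHE and CHRNB1 from CHRNA7. Over all 6 libraries the other neighbours in this order overlapped in their ranges. Within the negative control BCHE (4.37 to 5.08 TPM) lay above CHRNB1 (3.25 to 3.99), while in the KD libraries BCHE (2.96 to 3.66) had the lower mean and touched the range of CHRNB1 (3.65 to 4.42). From CHRNA7 downwards, neighbours overlapped within each group too, except ACHE and CHRM5 in the KD libraries, where CHRM5 was at 0. CHRNA5 was above 66.7% of protein-coding genes by mean level, BCHE above 52.0%, CHRNB1 above 51.6% and CHRM3 above 29.4%.

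**Figure D1:**
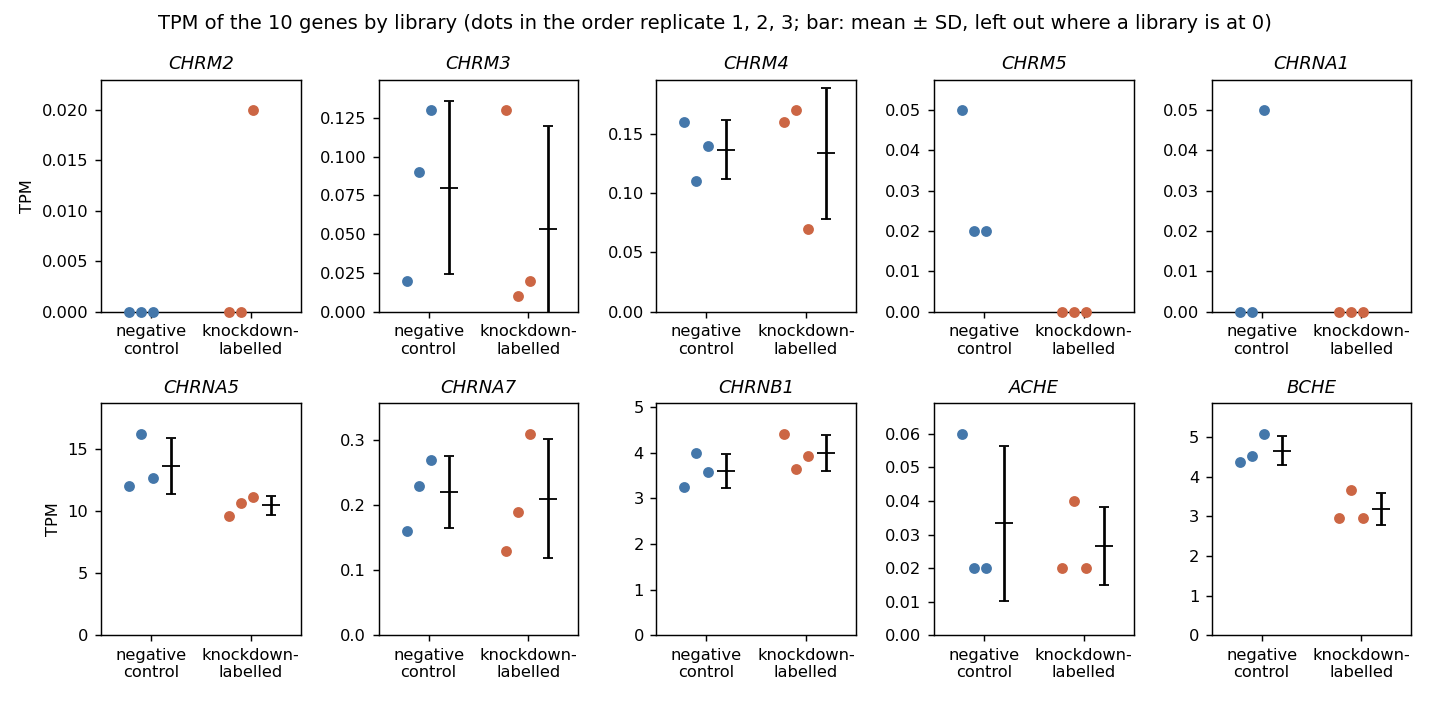
TPM (vertical axes, each gene on its own scale from 0) of the 10 genes in the 3 negative control and 3 knockdown-labelled libraries, as dots in the order of replicate 1, 2 and 3, with the mean ± SD where no library is at 0. BCHE and CHRNA5 lie lower in all 3 knockdown-labelled libraries, and the groups overlap for every other gene except CHRM5, which is at 0 in the knockdown-labelled libraries.

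The sequence before the start site is shown for BCHE, the only gene of the 10 that passed the test, and for CHRM3, the gene the study aimed at. Of the 10 genes, 9 were matched in the RefSeq promoters (build GRCh38.p14). CHRNA5 was not matched. Only bases outside every gene of GENCODE 29 are printed, 5′ to 3′ on the gene's strand, with capitals for matches to 5 short motifs. The BCHE stretch is 201 bases at chr3:165837473-165837673 on the minus strand, and the CHRM3 stretch 247 bases at chr1:239386318-239386564 on the plus strand. Each stretch ends at the base before its gene in GENCODE 29, which need not begin at the RefSeq start site.
BCHE: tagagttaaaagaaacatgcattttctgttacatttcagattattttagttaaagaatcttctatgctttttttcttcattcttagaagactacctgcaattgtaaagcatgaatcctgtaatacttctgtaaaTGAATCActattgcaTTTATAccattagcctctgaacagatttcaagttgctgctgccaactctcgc
CHRM3: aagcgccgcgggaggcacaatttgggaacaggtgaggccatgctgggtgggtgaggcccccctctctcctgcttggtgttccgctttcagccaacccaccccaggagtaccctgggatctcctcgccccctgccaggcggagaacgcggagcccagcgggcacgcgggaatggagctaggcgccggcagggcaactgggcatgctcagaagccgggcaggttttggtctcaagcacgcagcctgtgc
The motifs searched on both strands, none overlapping another here, were the GC box, spelled GGGCGG, the TATA box, spelled TATAAA, and the CCAAT box, spelled by its name. The AP-1 site was searched as the loose pattern TGANTCA, with N for any base, and the E-box as CACGTG. The BCHE stretch held 1 match to the TATA box, on the minus strand of the printed run. It also held 1 match to the AP-1 pattern, TGAATCA, in which the free base is A. The same stretch of the 35116 promoters counted, which leave out 1 chromosome, held the TATA box in 7.65% and the AP-1 site in 5.30%. The CHRM3 stretch held no match. It was rich in G and C at 66.8%, against a median of 58.3% over these promoters, whereas the BCHE stretch was at 32.3% against 57.2%.

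CHRM3 (ENSG00000133019), on chromosome 1 from 239386565 to 239915452 of GRCh38, encodes the M3 receptor and is the targeted gene. Its TPM was 0.02, 0.09 and 0.13 in NC replicates 1, 2 and 3 and 0.13, 0.01 and 0.02 in KD replicates 1, 2 and 3. The highest value occurred in both groups, and the ranges overlapped. The mean was 0.08 ± 0.0557 TPM in the negative control and 0.0533 ± 0.0666 in the KD libraries (SD, n = 3 each), and an exact two-sided permutation test gave p = 0.80, where 3 libraries against 3 allow no p below 0.10. Without NC replicate 3 the difference shrank from -0.0267 to -0.00167 TPM, and without KD replicate 1 it was -0.065 TPM. A reduction of CHRM3 was therefore not detectable at these levels, a few steps of 0.01 TPM above 0, and the groups rest on their labels. Both antisense genes within it, CHRM3-AS1 and CHRM3-AS2, were at 0 TPM in every library.

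The other muscarinic receptors were no higher than 0.17 TPM in any library. CHRM4, the Gi-coupled M4 receptor, was the highest, with 0.16, 0.11 and 0.14 TPM in NC replicates 1 to 3 and 0.16, 0.17 and 0.07 TPM in KD replicates 1 to 3. Its groups overlapped almost entirely. CHRM5, a Gq-coupled receptor, was 0.05, 0.02 and 0.02 TPM in the negative control and listed at 0 in all 3 KD libraries, so that its groups did not overlap. It lies on chromosome 15 and overlaps AVEN on the opposite strand, which was 18.2 ± 0.747 TPM in the negative control and 19.4 ± 0.730 in the KD libraries (SD, n = 3 each). CHRM2, the M2 receptor of the heart, was listed at 0 in 5 libraries and at 0.02 TPM in KD replicate 3. CHRM1, the remaining muscarinic gene, was listed at 0 in all 6.

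These genes were too low for the fit with a limit of 1 TPM on the mean over the 6 libraries, which left 13722 genes, and were tested with limma on log2(TPM + 1) across the 30412 genes above 0 in any library. In that fit 13.3% of genes had an adjusted p under 0.05, 8.71% lower and 4.55% higher in the KD libraries, and 0.769% also changed by 1 or more on the log2 scale. None of the 10 genes passed in limma, where their adjusted p ran from 0.0540 for BCHE to 0.967 for CHRM4. BCHE and CHRNA5 had an unadjusted p under 0.05, as did 23.8% of all genes in the fit. Groups that did not overlap occurred in 27.4% of these genes, 17.3% lower and 10.1% higher, and in 3 of the 10 genes, CHRM5, CHRNA5 and BCHE, all lower in the KD libraries. The log2 fold change was -0.037 for CHRM3 (95% interval -0.186 to 0.112), -0.005 for CHRM4 (-0.122 to 0.112) and -0.043 for CHRM5 (-0.096 to 0.011), with adjusted p of 0.754, 0.967 and 0.327. With 1 added to values this small, the interval bounds the change in TPM, not in the ratio.

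CHRNA5 (ENSG00000169684) was the most abundant of the 10 genes. It encodes an accessory nicotinic subunit that needs other alpha and beta subunits to form a channel. Its level was 12.03, 16.23 and 12.70 TPM in NC replicates 1 to 3 and 9.61, 10.69 and 11.10 in KD replicates 1 to 3. All 3 KD libraries were below the lowest negative control, and NC replicate 2 stood above the rest. The mean was 13.7 ± 2.26 TPM and 10.5 ± 0.770 TPM (SD, n = 3 each), and the log2 fold change of -0.345 (95% interval -0.622 to -0.068) did not pass the threshold (limma adjusted p = 0.0581). Without NC replicate 2 it was -0.223 (adjusted p = 0.0865), and without NC replicate 1 it was -0.424 and past the threshold (adjusted p = 0.0484).

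CHRNA5 lies on chromosome 15 from 78565520 to 78595269, in a cluster with CHRNA3 and CHRNB4. The strand used in counting is not given in the sources used here, and 17.5% of the distinct 150-base stretches of its GENCODE 29 transcripts also occur, as reverse complement, in the antisense gene ENSG00000261762. That gene was 3.45 ± 0.924 TPM in the negative control and 2.0 ± 0.469 in the KD libraries (SD, n = 3 each; limma adjusted p = 0.0624). Its part in the CHRNA5 values was not tested. The neighbouring proteasome gene PSMA4 fell from 476.0 ± 14.1 to 378.2 ± 7.90 TPM (SD, n = 3 each; log2 fold change -0.331, limma adjusted p = 0.000290). FMN2, EMC7 and MTPN, next to CHRM3, CHRM5 and CHRM2, fell past the threshold too, and PTN and WIPF1, next to CHRM2 and CHRNA1, rose. The other tested neighbours of the 10 genes did not pass. Of all tested genes 24.0% passed as lower and 12.1% as higher. CHRNA3, which forms the ligand-binding alpha subunit of ganglionic receptors and overlaps CHRNA5 on the other strand, was only 0.41 to 0.82 TPM in the negative control and 0.29 to 0.80 in the KD libraries.

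Of the muscle-type subunits only CHRNB1 reached 1 TPM in any library. CHRNB1 (ENSG00000170175), on chromosome 17 from 7445061 to 7457707, encodes the beta subunit of the receptor of the neuromuscular junction and was 3.25, 3.99 and 3.59 TPM in NC replicates 1 to 3 and 4.42, 3.65 and 3.93 in KD replicates 1 to 3. The groups overlapped. Its log2 fold change was 0.117 (95% interval -0.123 to 0.357, limma adjusted p = 0.403), so a rise or a small fall could not be told apart. Of its 150-base transcript stretches 7.02% also occur in the overlapping gene ENSG00000272884, which was at most 0.09 TPM. The growth factor gene FGF11, 124 bases away on the same strand, was 0.03 to 0.20 TPM in the negative control and 0.52 to 0.82 in the KD libraries. CHRNA1, the alpha subunit of that receptor, was 0.05 TPM in NC replicate 3 and listed at 0 in the other 5 libraries. The gamma subunit CHRNG was listed at 0 throughout, the delta subunit CHRND reached 0.02 TPM in 1 library and the epsilon subunit CHRNE at most 0.30 TPM. Of 10 skeletal muscle markers, none reached the limit of 1 TPM on the mean, and MYOD1, MYOG, MYF5 and TNNT3 were listed at 0 in all 6 libraries. The sum of the list was 0.38 to 1.28 TPM in the negative control and 0.67 to 1.39 in the KD libraries. MYH3, an embryonic myosin, exceeded 1 TPM in NC replicate 3 and was 0.10 to 0.67 TPM in the other 5 libraries. MYL1, a myosin light chain, was 0.09 TPM in NC replicate 1, 0 in NC replicates 2 and 3, and 0.77, 0.53 and 0.41 TPM in KD replicates 1 to 3. It rose past the threshold in limma without a limit (adjusted p = 0.0118), as did 4.55% of all genes in that fit. The other muscle markers in that fit did not pass.

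CHRNA7, which forms channels of 5 identical subunits, was 0.16, 0.23 and 0.27 TPM in NC replicates 1 to 3 and 0.13, 0.19 and 0.31 in KD replicates 1 to 3. The KD libraries held both the lowest and the highest value. Its log2 fold change was -0.014 (95% interval -0.189 to 0.162, adjusted p = 0.932 in limma without a limit). These values are uncertain, because 18.0% of the distinct 150-base stretches of its transcripts also occur in CHRFAM7A, a partly duplicated fusion gene, which was at most 0.09 TPM.

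BCHE (ENSG00000114200), on chromosome 3 from 165772904 to 165837472, was the gene of the 10 that fell past the threshold. It encodes a secreted enzyme that splits acetylcholine and other choline esters. Its level was 4.37, 4.52 and 5.08 TPM in NC replicates 1 to 3 and 2.96, 3.66 and 2.96 in KD replicates 1 to 3. Every KD library was below every negative control library. The mean went from 4.66 ± 0.374 to 3.19 ± 0.404 TPM (SD, n = 3 each), which is 31.4% lower, with a log2 fold change of -0.434 (95% interval -0.677 to -0.192, limma adjusted p = 0.0170). In bulk RNA, fewer cells with a transcript and less of it per cell cannot be told apart. None of its 150-base stretches occurs in a transcript of another gene.

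The call on BCHE was narrow. It made 1 of the 3 genes tested with the limit of 1 TPM, all within a data set in which 36.1% of the 13722 tested genes passed the same threshold, 24.0% lower and 12.1% higher, so that 1 of 3 is no more than the background. This split depended on the scaling, with 3295 of 4955 calls lower on TPM as deposited, 2245 of 4551 with median of ratios and 2229 of 4462 with quantile normalization. Groups did not overlap for BCHE and CHRNA5, both lower, against 50.2% of all tested genes, 32.8% lower and 17.4% higher. None of the 3 reached an absolute log2 fold change of 1 with an adjusted p under 0.05 in limma, as 1.87% of tested genes did, while 2 of the 3 had an unadjusted p under 0.05, against 46.2%. The adjusted p of BCHE rose to 0.0575 without NC replicate 3, 0.0522 without KD replicate 1, 0.0530 without KD replicate 3, and 0.0540 without the limit on low values. Over its 17 alternatives it ran from 0.00944 to 0.0575, and the log2 fold change from -0.534 to -0.371.

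ACHE, the cholinesterase of synapses, was far below BCHE in every library. It was 0.06, 0.02 and 0.02 TPM in NC replicates 1 to 3 and 0.02, 0.04 and 0.02 in KD replicates 1 to 3. The groups overlapped, and the log2 fold change was -0.009 (95% interval -0.074 to 0.055, adjusted p = 0.866 in limma without a limit). COLQ, the collagen tail that anchors ACHE at the neuromuscular junction, was at most 0.15 TPM, and PRIMA1, its membrane anchor in brain, was listed at 0 in all 6 libraries.

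**Figure D2:**
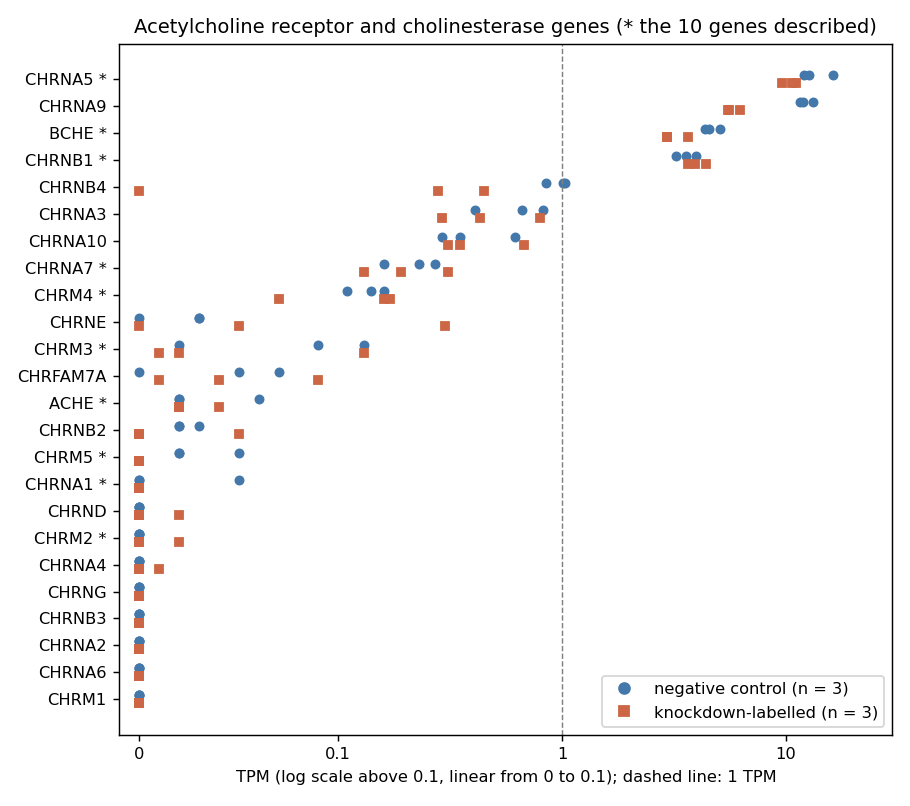
TPM of 24 acetylcholine receptor and cholinesterase genes (horizontal axis, log scale above 0.1 TPM and linear below) in the 3 negative control and 3 knockdown-labelled libraries, with the 10 genes described marked by a star and a dashed line at 1 TPM. CHRNA5, CHRNA9, BCHE and CHRNB1 are above 1 TPM in every library, and all muscarinic genes are under 0.2 TPM.

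Among the 14 other receptor genes, CHRNA9 was the most abundant, near CHRNA5 in the negative control and below it in every KD library. It alone of the 14 reached the limit for testing, at which 24.0% of all tested genes passed as lower. CHRNA9 encodes an alpha subunit known from cochlear hair cells that forms channels alone or with CHRNA10. It was 13.21, 11.57 and 11.94 TPM in NC replicates 1 to 3 and 6.22, 5.56 and 5.52 in KD replicates 1 to 3, with a wide gap between the groups. It fell from 12.2 ± 0.860 to 5.77 ± 0.393 TPM (SD, n = 3 each), a log2 fold change of -0.968 (95% interval -1.144 to -0.792, limma adjusted p = 0.000197), and passed the threshold in all 18 alternatives. Its partner CHRNA10 was 0.42 ± 0.176 TPM in the negative control and 0.447 ± 0.203 in the KD libraries (SD, n = 3 each), with overlapping groups.

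CHRNB4, the beta subunit that pairs with CHRNA3 and CHRNA5, was 1.03, 1.01 and 0.85 TPM in NC replicates 1 to 3 and 0.28 and 0.45 TPM in KD replicates 2 and 3, and was listed at 0 in KD replicate 1. Its groups did not overlap. In limma without a limit its log2 fold change was -0.675 (adjusted p = 0.0394), in a fit where 8.71% of all genes passed as lower. The call was lost without NC replicates 1, 2 or 3 (adjusted p = 0.112, 0.108 and 0.0865) and without KD replicates 1 or 2 (0.0561 and 0.0969). It was also lost with a pseudocount of 0.1 or 0.5 and with the replicate block (0.124, 0.0566 and 0.121), and 6 of its 14 alternatives passed. The log2 fold change ran from -1.944 with a pseudocount of 0.1 to -0.526 without KD replicate 1. CHRM1, CHRNA2, CHRNA6, CHRNB3 and CHRNG were listed at 0 TPM in all 6 libraries. CHRNA4 and CHRNB2, which form the main nicotinic receptor of the brain, were at most 0.01 and 0.05 TPM.

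**Figure D3:**
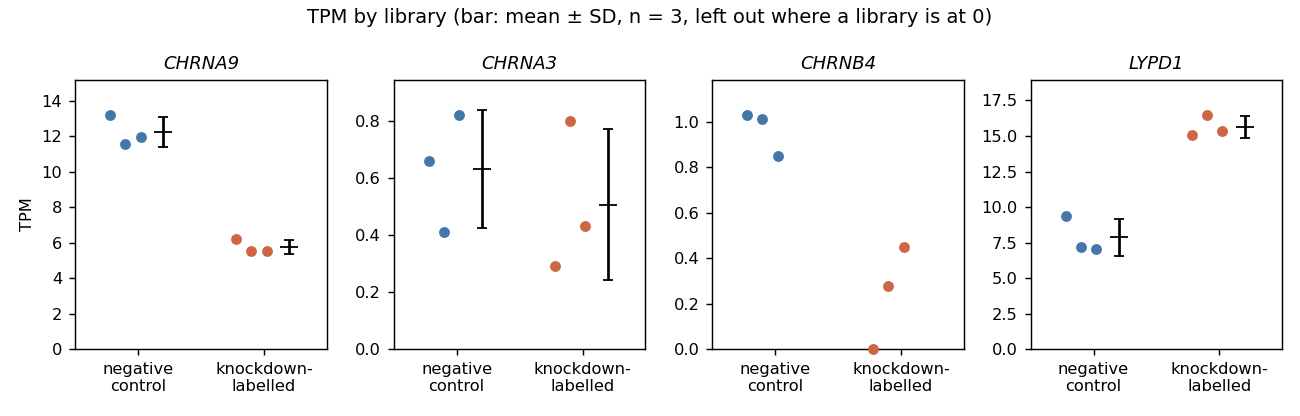
TPM (vertical axes, from 0) of CHRNA9, CHRNA3, CHRNB4 and LYPD1 in the negative control and knockdown-labelled libraries, as dots in the order of replicate 1, 2 and 3, with the mean ± SD (n = 3) where no library is at 0. CHRNA9 and CHRNB4 are lower and LYPD1 higher in all 3 knockdown-labelled libraries, and CHRNA3 overlaps between the groups.

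Of 18 genes for partners of the receptors and of ACHE, 5 reached the limit for testing, of which 2 rose and none fell, beside 12.1% and 24.0% of all tested genes, a split that was near even with median of ratios and quantile normalization. An unadjusted p under 0.05 in limma was found for 3 of the 5, against 46.2%. LYPD1, a membrane-anchored Ly6 protein known to bind nicotinic receptors, was 9.40, 7.17 and 7.09 TPM in NC replicates 1 to 3 and 15.05, 16.48 and 15.38 in KD replicates 1 to 3. Its groups stood well apart. The log2 fold change was 0.914 (95% interval 0.658 to 1.170, limma adjusted p = 0.00109), and it passed in all 18 alternatives. GPR39, which overlaps LYPD1 on the opposite strand, went the other way, from 7.07 ± 0.750 to 5.51 ± 0.436 TPM (SD, n = 3 each; limma adjusted p = 0.0423). CRELD2, an endoplasmic reticulum protein, rose from 29.3 ± 0.478 to 33.0 ± 0.731 TPM (SD, n = 3 each; limma adjusted p = 0.00965). AGRN, the agrin that clusters receptors at the neuromuscular junction, was 16.0 ± 0.653 and 17.7 ± 1.28 TPM (SD, n = 3 each) and did not pass (limma adjusted p = 0.140). The chaperone RIC3 was listed at 0 in all 6 libraries, and TMEM35A, another chaperone of nicotinic receptors, was 0.11 to 0.44 TPM.

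Genes that make and load acetylcholine were near 0. The synthesizing enzyme CHAT was at most 0.01 TPM, and the vesicular transporter SLC18A3 and the neuronal choline transporter SLC5A7 were listed at 0 in all 6 libraries. Of the 17 genes of acetylcholine synthesis and choline transport, 8 were tested, 3 fell and 1 rose, against 24.0% and 12.1% of all tested genes, with a median log2 fold change of -0.114 against -0.060 over all tested genes. SLC44A2, a choline transporter-like protein, was 4.54, 4.49 and 6.29 TPM in NC replicates 1 to 3 and 3.74, 2.49 and 2.78 in KD replicates 1 to 3, and fell by 0.609 on the log2 scale (limma adjusted p = 0.0284). CEPT1, which makes phosphatidylcholine, fell from 22.1 ± 2.67 to 16.3 ± 0.745 TPM, and the choline kinase CHKA from 14.97 ± 1.76 to 11.1 ± 0.512 TPM (SD, n = 3 each; limma adjusted p = 0.0118 and 0.0132). The other choline kinase, CHKB, rose from 8.13 ± 0.488 to 9.98 ± 0.777 TPM (SD, n = 3 each; limma adjusted p = 0.0320). The most abundant gene of this list, PCYT1A, was 45.2 ± 1.67 and 46.6 ± 2.75 TPM (SD, n = 3 each) and did not pass (limma adjusted p = 0.571). CEPT1 and CHKA passed in all 18 alternatives each. SLC44A2 was lost without NC replicates 1 or 3 or KD replicates 2 or 3 (limma adjusted p = 0.0503 to 0.0828). It was also lost without a limit (0.0810) and with the replicate block (0.0540), and passed in 11 of 17 alternatives. CHKB was lost without NC replicates 1, 2 or 3 or KD replicates 2 or 3 (limma adjusted p = 0.0501 to 0.0940). It was also lost without a limit (0.0752), with a limit of 0.1 TPM (0.0509) and with the replicate block (0.0502), and passed in 10 of 18.

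On the Gq side of the M1, M3 and M5 receptors, 8 of 11 genes were tested and none had an adjusted p under 0.05 in limma, against 36.1% of all tested genes, while 4 had an unadjusted p under 0.05, against 46.2%. The median log2 fold change was 0.024, against -0.060. GNA11, a Gq family alpha subunit and the most abundant gene of the list, was 42.5 ± 1.85 and 38.0 ± 2.68 TPM (SD, n = 3 each), with a limma adjusted p of 0.0792, and 0.0243 without KD replicate 2. The calcium release channel ITPR1 was 28.9 ± 3.28 and 34.4 ± 1.32 TPM, with a limma adjusted p of 0.0555, and 0.0289 without NC replicate 2. For the phospholipase gene PLCB1, at 1.43 ± 0.401 and 2.40 ± 0.522 TPM, the limma adjusted p was 0.0702, and 0.0458 without NC replicate 3 (SD, n = 3 for every mean). Most alternatives did not pass: GNA11 passed in 1 of 18, ITPR1 in 6 of 18 and PLCB1 in 2 of 17. The highest limma adjusted p over these alternatives was 0.383, 0.145 and 0.181.

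On the Gi side of M2 and M4, 9 of 18 genes were tested, 1 fell and 1 rose, against 24.0% and 12.1% of all tested genes, with a median log2 fold change of 0.038 against -0.060. GNAI1, an inhibitory G protein alpha subunit, fell from 24.8 ± 1.09 to 18.5 ± 0.364 TPM (SD, n = 3 each; log2 fold change -0.406, limma adjusted p = 0.000864). The adenylyl cyclase ADCY8 rose from 12.1 ± 0.342 to 14.4 ± 0.358 TPM (SD, n = 3 each; log2 fold change 0.230, limma adjusted p = 0.00903). GNAI2, the most abundant, was 350.9 ± 7.95 and 360.3 ± 4.53 TPM (SD, n = 3 each) and did not pass (limma adjusted p = 0.232). The potassium channel genes KCNJ6 and KCNJ9 were listed at 0 in all 6 libraries.

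**Figure D4:**
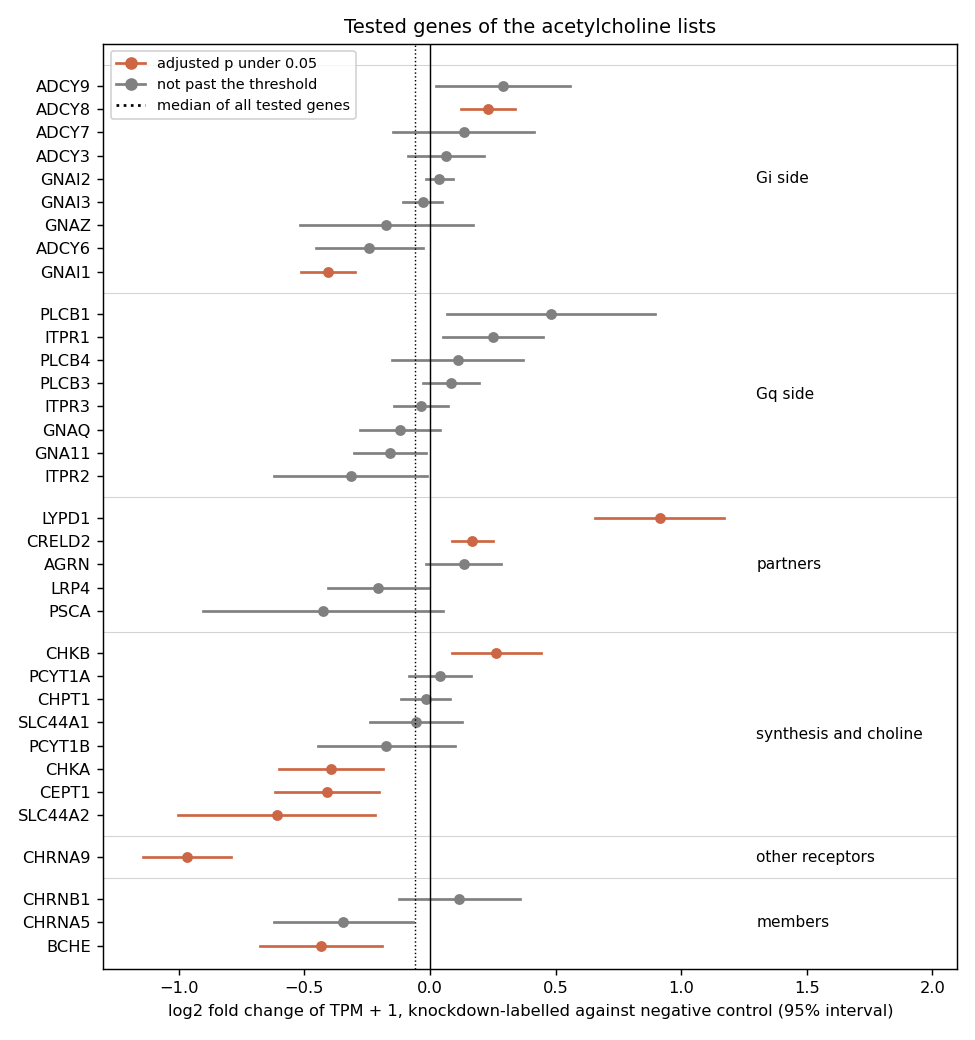
Log2 fold change of TPM + 1 (horizontal axis, knockdown-labelled against negative control, with 95% intervals) for the 10 genes and the 5 acetylcholine lists, where the mean is at least 1 TPM (marker lists not drawn), coloured where the limma adjusted p is under 0.05, with a dotted line at the median of all 13722 tested genes. BCHE is the coloured gene among the 3 members tested, and of the genes drawn CHRNA9 and LYPD1 lie farthest to either side.

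The 6 libraries had between 22597 and 23311 genes above 0 TPM. Of 10 glial and glioma markers, VIM and CD44 were abundant, GFAP was 0.87 to 1.46 TPM, SOX2 was at most 0.09 TPM and AQP4 was listed at 0 in all 6 libraries. Of the 6 tested, 5 passed, against 36.1% of all tested genes. SLC1A3, the astrocytic glutamate transporter, was 21.55 to 26.50 TPM in the negative control and 14.10 to 17.31 in the KD libraries and fell (limma adjusted p = 0.00628), as did CD44, while NES, VIM and CHI3L1 rose, VIM not past the threshold with quantile normalization and NES not without a limit. Of 10 leukocyte markers, 8 were under 1 TPM in every library, and their sum was 8.37 to 9.58 TPM in the negative control and 11.9 to 13.5 TPM in the KD libraries, mostly from CSF1R and CORO1A. CSF1R rose from 5.44 ± 0.168 to 9.17 ± 0.0351 TPM (SD, n = 3 each; limma adjusted p = 0.000259), and CORO1A, at 2.87 ± 0.399 and 3.12 ± 0.686 TPM, did not pass (limma adjusted p = 0.699). The part of the marker genes in the results was not tested.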

How the data were processed

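RNA from U87-MG cells (3 NC and 3 KD libraries) was sequenced in read pairs. The submitters' processing notes name fastp, RSEM and the build GRCh38.p13. Their parameters, the annotation and the strand setting are not given in the sources used here. The authors deposited TPM per gene and library, rounded to 2 decimals, which keeps no read depth. All 6 columns matched a sample label, and 0 were left over. Of 61541 Ensembl identifiers, 61369 had a symbol. Gene types and coordinates came from GENCODE 29 (GRCh38).

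The limma package (version 3.58.1, R 4.3.3) was fitted to log2(TPM + 1) with lmFit and eBayes (mean-variance trend, no term but the group) and adjusted by the Benjamini-Hochberg method over all genes tested. The main fit took genes averaging 1 TPM or more over the 6 libraries, and the second all genes above 0. The threshold was an adjusted p under 0.05. The CHRM3 level was tested by exact permutation (scipy 1.17.1). On simulated data 200 of 13722 genes were changed, 100 by 1 on the log2 scale and 100 by 0.5, and the rest were not. The main fit recovered 83 and 55 of them with 5 false calls. With 200 of 30412 genes changed, the second fit recovered 67 and 49 with 8 false calls. In the real data 4955 of 13722 genes passed, so these rates need not hold there.

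The named genes were the 10 genes and in each list up to 4 genes with the largest change past the threshold and the most abundant one. Some overlapping or neighbouring genes were named too, and for each tested gene of the 10 the 3 most alike over the libraries. Genes named for low levels or lost calls, and ITPR1, PLCB1, PLCB3, SYT1, CHRNB4 and MYL1, were added after their values were seen. The genes, lists and tests were chosen with earlier results of these data known. Alternatives varied the pseudocount, the limit, the scaling, the gene types, the trend, a replicate block and the libraries.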

Additional observations from a re-analysis of the deposited data

How the results depend on the processing

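The count of the 10 genes past the threshold was 1, and became 0 without a limit on low values and 2 with protein-coding genes only, where CHRNA5 passed too. With a limit of 5 TPM it was 1 as well, but the gene was CHRNA5 (limma adjusted p = 0.0444), since BCHE was below that limit. Across the fits that each left out 1 library it ran from 0 to 2. Over all tested genes, 4955 of 13722 passed in the main fit, 4033 of 30412 without a limit and 4903 of 11472 with protein-coding genes only. With a limit of 5 TPM 4492 of 9806 passed, and 3850 to 4210 across the fits that left out 1 library. In the fit without a limit the count of the 10 genes was 0. It became 1, BCHE, with a pseudocount of 0.1 or 0.5, mitochondrial transcripts left out, protein-coding genes only, or no mean-variance trend. The cause of these changes was not tested. No gene of the 10 passed with a log2 fold change limit of 1 under any alternative. The number of the 10 genes detected in both groups was 4 at 0.1 TPM, 7 above 0 TPM and 3 at 1 TPM.

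Among the other receptor genes 1 passed, CHRNA9, of 1 tested. Without a limit 2 of 9 passed, CHRNA9 and CHRNB4, and with a limit of 0.1 TPM the same 2 of 4. With that limit and a pseudocount of 0.1 CHRNB4 did not pass. For acetylcholine synthesis and choline transport 4 passed, and 2 without a limit and with the replicate block, and 2 to 4 across the fits that left out 1 library. On the Gq side 0 passed in the main fit. With median of ratios and with quantile normalization 2 passed, ITPR1 and PLCB3, and with protein-coding genes only 2, ITPR1 and PLCB1. With a limit of 5 TPM and with the replicate block 1 passed, ITPR1. Across the fits that left out 1 library 0 to 1 passed. On the Gi side 2 passed, and 4 with no mean-variance trend. The partner genes stayed within 1.5 times their count of 2 in every alternative. Over all tested genes 4551 of 13719 passed with median of ratios, 4462 of 13722 with quantile normalization and 4696 of 13722 with no mean-variance trend. With the replicate block 4007 of 13722 passed, and with a limit of 0.1 TPM 4664 of 20229.

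Log2 fold changes near 0 changed sign in the fit without a limit. CHRM4 was 0.003 with median of ratios, 0.001 with quantile normalization, 0.010 without NC replicate 1 and 0.036 without KD replicate 3. CHRNA7 was 0.016 without NC replicate 3 and 0.034 without KD replicate 1, and ACHE was 0.009 without NC replicate 1. Over the left-out libraries CHRM4 ran from -0.029 to 0.036, CHRNA7 from -0.072 to 0.034 and ACHE from -0.018 to 0.009. The median over all tested genes, -0.060, became 0.003 with median of ratios and 0.002 with quantile normalization. The CHRM3 difference was between -0.065 and -0.00167 TPM across the left-out libraries.

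No pairing of the 2 groups by replicate number was visible. The deviations of same-numbered libraries correlated at -0.0198, 0.0341 and 0.0334, and NC replicate 1 correlated best with KD replicate 3. Such values cannot tell if the replicates were grown or handled in pairs. With the replicate block 4007 in place of 4955 genes passed, and BCHE had an adjusted p of 0.0476 in limma.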

Other observations

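Of 10 neuronal markers, 3 were tested and 2 rose, against 12.1% of all tested genes. GAP43, a growth cone protein, was 1.91, 1.65 and 1.88 TPM in NC replicates 1 to 3 and 5.26, 4.21 and 5.34 in KD replicates 1 to 3, with groups far apart (log2 fold change 1.073, limma adjusted p = 0.000639). SNAP25, a protein of synaptic vesicle fusion, rose from 9.74 ± 0.841 to 13.8 ± 0.346 TPM (SD, n = 3 each; limma adjusted p = 0.00255). The postsynaptic scaffold gene DLG4 was 14.0 ± 0.304 and 14.1 ± 1.40 TPM (SD, n = 3 each) and did not pass (limma adjusted p = 0.968). STMN2 and ELAVL4, defining neuronal markers, were listed at 0 TPM in all 6 libraries. SYT1 was 0.19 to 0.26 TPM in the negative control and 0.41 to 0.51 in the KD libraries. It rose past the threshold in limma without a limit (adjusted p = 0.0359), as did 4.55% of all genes in that fit. RBFOX3, NEFL, SYP and SLC17A7 did not pass in it.

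As a description over 6 libraries in 2 groups, the genes whose log2(TPM + 1) followed BCHE most closely were LRRC37A4P, ENSG00000279881 and HNRNPL, with Pearson's r of 0.9998, 0.996 and 0.9955, and 498 of the tested genes reached 0.95. For CHRNA5 they were CLHC1, ST7L and TMEM19, at 0.9903, 0.9884 and 0.9878, with 47 genes at 0.95 or more. For CHRNB1 they were RBM25, NQO2-AS1 and ZNF446, at 0.9921, 0.9903 and 0.9858, with 14 genes. These libraries share their group, and with 6 points such values are common among 13722 genes.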
